A study of Rattus norvegicus with 9 samples.

Results

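The regions described here are the accessible stretches of chromatin that lie in the broadest H3K4me1 domains of the rat dorsal root ganglion (DRG). They were taken by position alone, as the accessible regions shorter than 1500 bp that share at least 1 bp with an H3K4me1 region of 4000 bp or longer. There were 5984 of them among 186719 accessible regions (3.20%), and among the 58445 accessible regions that overlapped any H3K4me1 region (10.2%). Accessibility was measured by ATAC-seq, in which the Tn5 transposase inserts sequencing adaptors into open chromatin, in the ipsilateral L4-L6 DRGs of adult female Sprague-Dawley rats. The CCI group was 2 rats taken 14 days after chronic constriction injury of the sciatic nerve, a surgical model of neuropathic pain, and the naive group was 3 rats with no procedure, with 1 rat per library. Since no rat had sham surgery, the surgery and the constriction cannot be told apart. The mark was mapped by ChIP-seq with DRGs pooled from 3 rats per sample, 2 samples from each condition, and the conditions were merged into a single list of regions without values, so a change of the mark itself cannot be read from it.

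H3K4me1, monomethylation of lysine 4 of histone H3, marks enhancers and the flanks of active promoters. Within a marked stretch, the places where nucleosomes give way to transcription factors appear as accessible regions. Long stretches of enhancer chromatin often hold several such places, and they are known from genes that define the identity of a cell type. The DRG is a mixed tissue of sensory neurons, satellite glia, Schwann cells, vessels and immune cells. In such bulk libraries, a loss of cells of a type and a loss of signal per cell cannot be told apart. Gene positions on the rn6 genome of the files were not used here, so the labelled tissue was not checked against accessibility at its marker genes as a whole.

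The promoters of 4 genes and the mature sequences of 3 miRNAs are shown first, because regions assigned to them carry the changes described further on. Regions at the promoters of Lyl1 and Socs3 were called more accessible in CCI rats, and regions at the promoters of Erbb4 and Etv1 were called less accessible. The call at Socs3 was lost without CCI rat 1 and when libraries were centred on 1 Mb windows, and that at Etv1 was kept in 1 of the 5 fits that left out a rat. Sequences are from RefSeq on GRCr8, from 250 bases before to 50 bases after the gene start, and capitals mark GC boxes (GGGCGG on either strand) and CCAAT boxes (CCAAT on either strand). They are on another build than the rn6 positions of the accessible regions and may not coincide with them.
Lyl1 promoter, chr19:40359785-40360084, minus strand: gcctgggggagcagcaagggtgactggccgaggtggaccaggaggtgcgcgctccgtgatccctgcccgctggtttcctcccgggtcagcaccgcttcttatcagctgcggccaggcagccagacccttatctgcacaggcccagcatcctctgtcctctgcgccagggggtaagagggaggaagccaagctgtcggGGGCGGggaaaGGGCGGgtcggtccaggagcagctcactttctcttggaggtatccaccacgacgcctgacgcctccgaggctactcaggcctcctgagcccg
Socs3 promoter, chr10:103694719-103695018, minus strand: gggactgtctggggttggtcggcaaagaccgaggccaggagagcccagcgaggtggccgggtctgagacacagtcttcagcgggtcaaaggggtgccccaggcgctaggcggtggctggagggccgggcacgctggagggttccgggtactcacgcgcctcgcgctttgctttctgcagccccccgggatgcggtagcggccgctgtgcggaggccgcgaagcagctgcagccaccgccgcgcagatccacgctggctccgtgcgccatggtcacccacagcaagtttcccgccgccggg
Erbb4 promoter, chr9:78045557-78045856, minus strand: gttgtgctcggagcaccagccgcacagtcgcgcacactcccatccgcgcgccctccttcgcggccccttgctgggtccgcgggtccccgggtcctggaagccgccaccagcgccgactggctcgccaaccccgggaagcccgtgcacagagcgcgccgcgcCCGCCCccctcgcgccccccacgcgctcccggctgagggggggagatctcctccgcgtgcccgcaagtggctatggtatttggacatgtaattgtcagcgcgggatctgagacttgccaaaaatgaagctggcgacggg
Etv1 promoter, chr6:61317179-61317478, plus strand: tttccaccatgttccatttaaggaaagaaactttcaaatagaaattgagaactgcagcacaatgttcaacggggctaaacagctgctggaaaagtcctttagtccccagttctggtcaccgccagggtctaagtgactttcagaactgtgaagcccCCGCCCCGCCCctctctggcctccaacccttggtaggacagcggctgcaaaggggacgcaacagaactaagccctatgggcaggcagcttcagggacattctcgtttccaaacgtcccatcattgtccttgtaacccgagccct
Of these 300-base windows, that of Lyl1 held 2 GC boxes, that of Erbb4 held 1 and that of Etv1 held 2, whereas none was found in that of Socs3. None of the 4 windows held a CCAAT box. The windows rest on annotated gene starts, and whether these are the starts in use was not tested, for Socs3 among them. The counts therefore hold for the windows and may not hold for the promoters. The GC content was 66.7% for Lyl1, 70.7% for Socs3, 70.3% for Erbb4 and 52.0% for Etv1.

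The miRNAs are the nearest listed genes of called regions in broad domains, and their own levels were not measured. Capitals mark the seed, bases 2 to 8, and the 3 seeds differ.
miR-138-5p: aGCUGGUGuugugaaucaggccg
miR-6328: aGGCCUGCucugagcccccgc
miR-9a-5p: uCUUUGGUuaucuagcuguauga
The regions near Mir138-1 and Mir6328 were more accessible in CCI rats and that near Mir9-2 was less accessible, as given with their values in the account of single regions.

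Broad domains were few but nearly always contained open chromatin. They made up 3469 of 211440 H3K4me1 regions (1.64%), covered 20.1 Mb (10.9% of the marked bases) and ranged in length from 4000 to 36524 bp (median 5111 bp). An accessible region was present in 94.9% of broad domains, compared with 43.9% of H3K4me1 regions of 1 to 4 kb and 14.6% of those under 1 kb, and 177 broad domains held none. A further 383 accessible regions of 1500 bp or more lay in broad domains and were left out by the rule. The 5984 regions lay in 3035 of the broad domains (87.5%). Of these domains, 1282 held 1 region, 975 held 2, 490 held 3, 211 held 4, and 77 held 5 or more, up to 11 in a single domain. Thus 78.6% of the regions shared their domain with another, and such neighbours are not independent of each other. Over the full length of all H3K4me1 regions in a class, accessible regions of any length came to 0.317 per kb of broad domain. The same measure was 0.323 per kb in H3K4me1 regions of 1 to 4 kb and 0.314 per kb in those under 1 kb. Without the accessible regions of 1500 bp or more it was 0.298 per kb of broad domain. Neighbours in a domain were a median of 641 bp apart. Only 198 of the regions crossed an edge of their domain, and the centres were spread along it, with 19.6% in the middle 20% of the length and 13.8% in the outer 10% at either end.

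Accessible regions in broad domains were longer and more strongly accessible than those in shorter H3K4me1 regions. Their median length was 483 bp, against 444 bp in H3K4me1 regions of 1 to 4 kb, 293 bp in those under 1 kb, and 222 bp where H3K4me1 was not called. The median signal in normalized reads (reads divided by a factor for library size) per kb was 139 in CCI rat 1 and 105 in CCI rat 2. In the naive rats it was 97.5, 118 and 98.2, so the 2 groups overlapped. In H3K4me1 regions of 1 to 4 kb the same measure was 78.3 and 63.8 in the CCI rats and 60.5, 68.1 and 62.9 in the naive rats. The ratio of the 2 classes was 1.67 ± 0.0891 (SD, n = 5 rats) and was above 1 in 5 of 5 rats (exact two-sided sign-flip permutation test, p = 0.0625, the smallest p that 5 rats allow). Against H3K4me1 regions under 1 kb the ratio was 2.47 ± 0.286 (SD, n = 5), and against regions outside H3K4me1 it was 3.07 ± 0.549 (SD, n = 5), each above 1 in every rat and each with the same exact p of 0.0625.

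**Figure D1:**
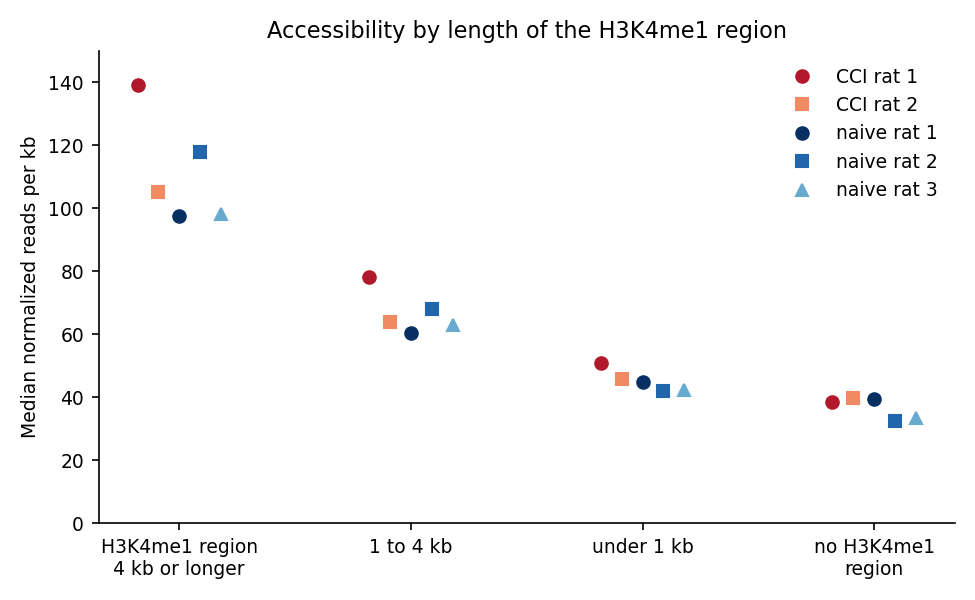
Median normalized reads per kb of accessible regions (vertical axis, linear from 0) by the length of the H3K4me1 region they lie in, with 1 point per rat (red shades CCI, blue shades naive). In every rat the class of 4 kb or longer is highest, from 97.5 to 139, and the order of the classes is the same.

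Among the broad domains too, signal was higher in longer ones. The median per kb was 98.4 normalized reads in domains of 4 to 5 kb, 109 in those of 5 to 6 kb, 121 in those of 6 to 8 kb, 137 in those of 8 to 12 kb, and 144 in the 308 regions of the 76 domains over 12 kb. The regions became shorter in the same order, from a median of 531 bp to 410 bp. On either side of the limit of the rule, regions in H3K4me1 regions of 3500 to 3999 bp had a median of 87.6 normalized reads per kb, and those in domains of 4000 to 4499 bp had 99.3.

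Reads were unevenly divided between the regions that shared a domain. In domains with 2 regions the stronger region held between 72.5% and 76.3% of the reads (median over 975 domains, range over the 5 rats). In domains with 3 regions the strongest held 56.5% to 58.5%, and in those with 4 it held 44.2% to 45.4%. The same region was the strongest in all 5 rats in 1375 of 1753 domains (78.4%). The domain with the most regions, chr1:54950736-54961120, had 11 regions and 10385 bp, and its summed signal was 974 and 940 normalized reads in the CCI rats and 949, 949 and 976 in the naive rats. The longest domain, chr3:171308183-171344706, was assigned to Pmepa1, a membrane protein that restrains TGF-beta signalling, and held 9 regions with 632 and 520 normalized reads in the CCI rats and 486, 563 and 434 in the naive rats. In neither domain did the rats of the 2 groups separate.

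The 8 regions with the highest signal per kb included 5 in a stretch of 36123 bp on chromosome 1, which lay in 3 broad domains. The strongest, chr1:55710618-55711437, had 950 and 838 normalized reads in the CCI rats and 908, 916 and 948 in the naive rats. These values overlapped between the groups and varied little. A pair of regions in another domain of the same chromosome varied more, and that at chr1:11909507-11910193 had 793 and 471 normalized reads in the CCI rats against 292, 858 and 561 in the naive rats. None of the 8 had a gene name in the lists used here.

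To ask whether these regions respond to nerve injury, the share of each library's reads that fell in them was compared first, since it needs no scaling. It was 13.3% and 11.9% in the CCI rats and 11.1%, 12.7% and 11.5% in the naive rats. The groups overlapped, with 12.6% ± 1.01 (SD, n = 2) in CCI and 11.8% ± 0.861 (SD, n = 3) in naive rats (exact two-sided permutation test, p = 0.400, where 0.1 is the smallest p that 2 against 3 rats allow). The median log2(normalized reads + 1) of the regions was above that of the other tested regions by 1.52 and 1.37 in the CCI rats and by 1.31, 1.48 and 1.34 in the naive rats. The difference between the groups was 0.07 on the log2 scale (exact permutation test, p = 0.500). It was -0.01 without CCI rat 1. Thus no difference between CCI and naive rats in the broad domains as a class was detectable with these rats. Naive rat 2 lay near CCI rat 1 in each of these measures and had the fewest reads. Of the reads in tested regions alone, the regions held 19.3% and 18.4% in the CCI rats. In the naive rats this share was 17.2%, 18.4% and 17.3% (exact two-sided permutation test, p = 0.200).

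The 2 CCI rats differed from each other in how far they lay from the naive rats. The log2 difference of CCI rat 1 from the naive mean had a median of 0.43 over the regions in broad domains, and 80.2% of them lay above that mean. For CCI rat 2 the median was 0.05, with 54.3% above. Over the other tested regions the medians were 0.24 for CCI rat 1 and 0.01 for CCI rat 2.

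**Figure D2:**
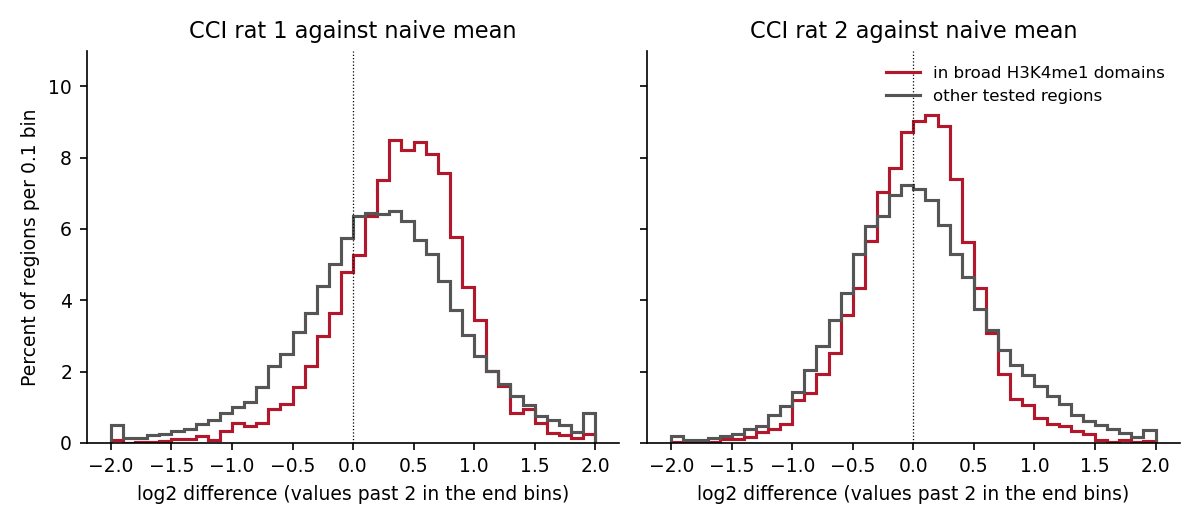
Distribution of the log2(normalized reads + 1) difference between each CCI rat and the mean of the 3 naive rats (horizontal axis), as the percent of regions in each bin of 0.1 (vertical axis), for 5984 regions in broad domains (red) and 52461 other tested regions (grey). The red curve lies to the right of 0 in CCI rat 1 (median 0.43) and close to 0 in CCI rat 2 (median 0.05).

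The 5 libraries had between 4633807 and 13248437 reads in accessible regions, and the median region in a broad domain held 52 reads in the shallowest of them (naive rat 2) and 133 in the deepest (naive rat 1). On the log2 scale the SD between naive rats had a median of 0.26 in broad domains and 0.39 in H3K4me1 regions under 1 kb. Region by region, 518 of the 5984 regions (8.66%) were called at an unadjusted p below 0.01 by limma's moderated test, 423 of them more accessible and 95 less accessible in CCI rats. Over all 58445 tested regions 5.25% were called, 3.36% as more and 1.89% as less accessible, and over the tested regions outside the set 4.86%. At a Benjamini-Hochberg adjusted p below 0.05 over all tested regions, 68 were called, against 0.749% of all tested regions. Of these 50 were more and 18 less accessible, against 0.334% and 0.416% of all tested regions. At the looser unadjusted p below 0.05 limma called 1317 (22.0%), against 14.9% of all tested regions. Of these 1096 were more and 221 less accessible, against 10.3% and 4.66%. In 1500 of the regions the lower CCI value exceeded the highest naive value (25.1%, against 20.4% of all tested regions), and in 489 the higher CCI value was under the lowest naive value (8.17%, against 11.1%). Of the 518 called regions 498 were separate in this sense (96.1%, against 96.1% of all called tested regions). Separate values in a called region therefore add little to its call. The median log2 fold change was 0.24 in the regions and 0.15 over all tested regions. The rat-level tests cannot give a p below 0.1 with 2 against 3 rats, so they could not decide this. The higher share of calls is a count within this fit and no difference between the classes was established.

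The split between more and less accessible calls moved with the scaling and with CCI rat 1. Without CCI rat 1, 229 regions were called, 51 more and 178 less accessible, and 118 of them were among the 518. In that fit 3.83% of the regions were called, against 3.39% of the other tested regions. Without CCI rat 2, 977 were called, 932 more and 45 less accessible (16.3%, against 6.11% of the others). Without naive rat 1 there were 164 calls (2.74%, against 2.50% of the others), without naive rat 2 614 (10.3% against 4.98%) and without naive rat 3 278 (4.65% against 3.54%). Median-of-ratios scaling, which moved the median over all tested regions from 0.15 to 0.02 on the log2 scale, gave 483 more and 340 less accessible. Quantile normalization gave 805 and 377, cyclic loess 799 and 372, and edgeR with TMM factors 505 and 380. The share called more accessible was 8.07% with median-of-ratios, against 2.57% of the other tested regions. It was 13.5% with quantile (others 3.99%), 13.4% with cyclic loess (3.92%) and 8.44% with TMM factors (2.71%). The shares called less accessible were near those of the others, in the same order 5.68% (5.93%), 6.30% (6.22%), 6.22% (6.14%) and 6.35% (6.65%). When each library was centred on the median of 1 Mb windows, 35 were more and 175 less accessible. In that fit 3.51% of the regions were called, against 4.19% of the other tested regions.

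**Figure D3:**
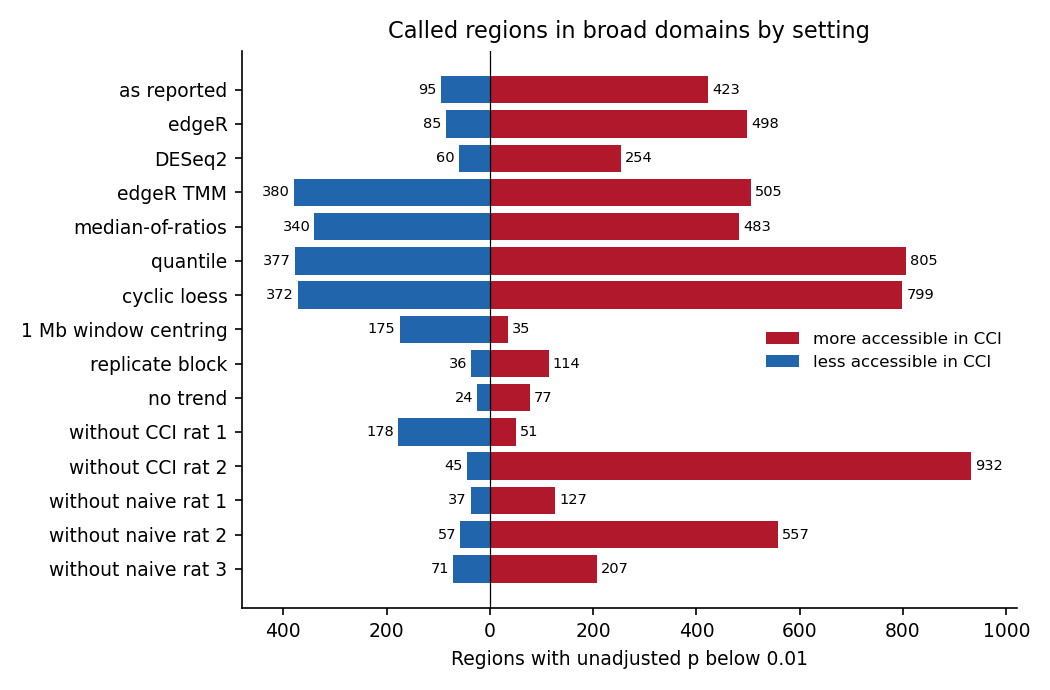
Number of the 5984 regions with an unadjusted p below 0.01 (horizontal axis) that were more accessible (red, to the right) or less accessible (blue, to the left) in CCI rats, in the fit as reported and in 14 others. More accessible calls lead in most settings, but less accessible calls lead without CCI rat 1 (178 against 51) and with 1 Mb window centring (175 against 35).

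The share of called regions was compared within 5 equal classes of signal, and it was higher in broad domains in 4 of the 5. The share called less accessible was lower in broad domains in all 5, so the higher total came from the calls of more accessible regions. In the class with the highest signal, 8.83% of those in broad domains and 5.83% of the others were called. Among regions with a mean of 27.8 to 72.5 normalized reads the shares were 9.91% and 7.70%, and under 8.88 normalized reads they were 0.518% and 0.548%. Weighted over the 5 signal classes the difference was 2.38 percentage points, compared with 3.80 without classes. By domain length, 7.78% of the regions were called in domains of 4 to 5 kb, 9.16% at 5 to 6 kb, 7.66% at 6 to 8 kb, 10.7% at 8 to 12 kb and 12.3% over 12 kb. The lowest share was not in the shortest class, and the longest class rested on 38 called regions in 76 domains.

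**Figure D4:**
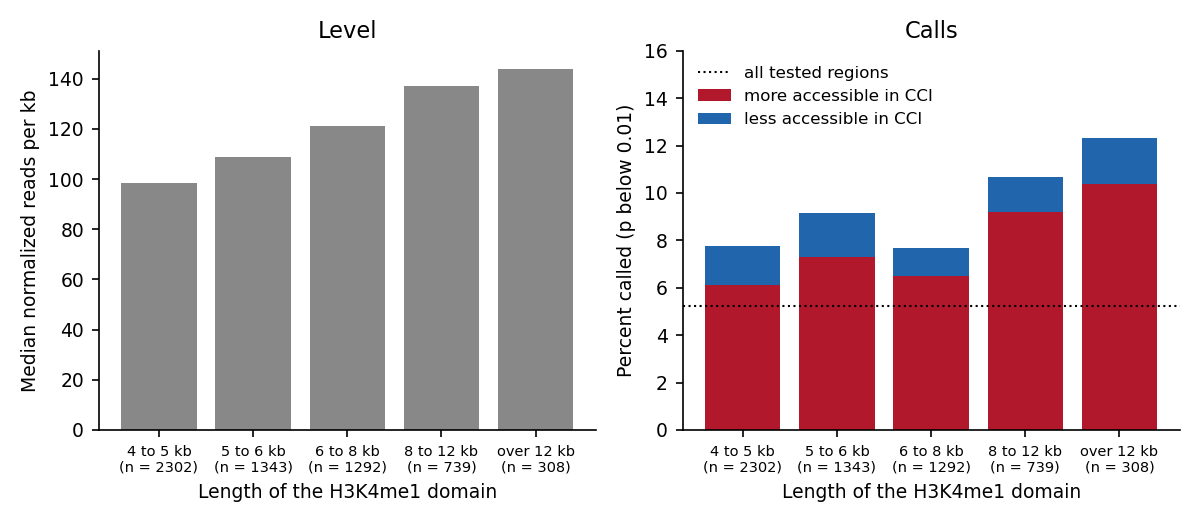
Left, median normalized reads per kb (linear axis from 0) of the regions by the length of their H3K4me1 domain, and right, the percent called at p below 0.01, stacked as more accessible (red) and less accessible (blue), with the 5.25% of all tested regions as a dotted line. The level goes from 98.4 to 144 and the share called from 7.78% to 12.3% between the shortest and the longest class, with a dip to 7.66% at 6 to 8 kb.

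A set of 37 regions kept their call and direction in each of the 5 fits that left out 1 rat, 22 more and 15 less accessible. At an adjusted p below 0.05 limma called 27 of the 37. The same count was not made for the other tested regions, so the 37 have no background share. Gene names were available for 36. A region had a name only where the study listed it as changed in these same libraries, so the names are no independent evidence of a change. By this selection no single rat decided the call in the 37 regions, but the size of a change could still depend on 1 rat. The 1 Mb windows around the 22 more accessible regions had median log2 fold changes of 0.33 to 0.69 themselves, and those around the 15 less accessible regions had -0.36 to 0.30. With window centring limma still called all 15 less accessible regions and 9 of the 22, namely those near Atp5l, Mir6328, Lyl1, RT1-A3, Zc3h12a, Plec, Slc39a7, Gna13 and Nudt14.

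**Figure D5:**
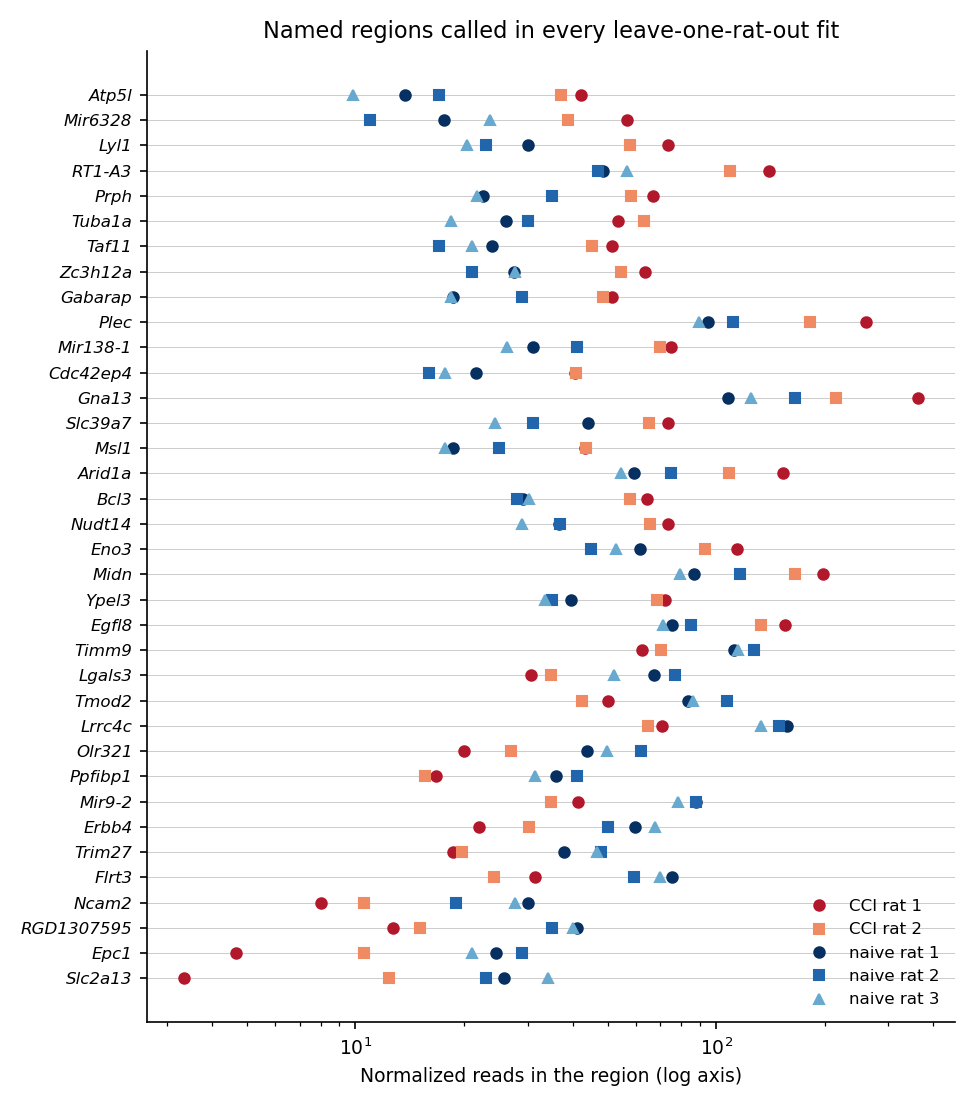
Normalized reads of each rat (horizontal axis, log scale) in the 36 named regions whose call held in every fit that left out 1 rat, with 1 row per region and 1 point per rat (red shades CCI, blue shades naive). In the 22 upper rows both red points lie to the right of all blue points, and in the lower rows, from Timm9 down, to their left. Of all 518 called regions 96.1% were separate in this sense.

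Among the 22 more accessible regions were those near Prph, Tuba1a and Plec. The region near Prph, which encodes peripherin, an intermediate filament of peripheral neurons, lay at chr7:140740370-140740931 in a domain of 7328 bp and had 66.8 and 58.1 normalized reads in the CCI rats against 22.5, 35 and 21.7 in the naive rats. The log2 fold change was 1.24 (SE 0.300, limma adjusted p = 0.0164). All 3 regions of that domain were called more accessible. The region near Tuba1a, an alpha tubulin of growing axons, had 53.4 and 63.2 normalized reads in the CCI rats against 26.1, 30 and 18.4 in the naive rats (log2 fold change 1.22, limma adjusted p = 0.0231). The region near Plec, the cytolinker plectin, covered chr7:117290618-117291938 and had 260 and 182 normalized reads in the CCI rats against 95.1, 111 and 89.4 in the naive rats (log2 fold change 1.14, limma adjusted p = 0.00809). In all 3 regions the CCI and naive values were separate, as in 96.1% of the 518 called regions. With window centring Plec kept its call, and Prph (log2 fold change 0.65) and Tuba1a (0.63) did not. Plec had 4 called regions in 3 broad domains, all more accessible.

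Of the 22, the strongest signal was at the promoter of Gna13, an alpha subunit of a heterotrimeric G protein, with 362 and 214 normalized reads in the CCI rats against 108, 165 and 125 in the naive rats (log2 fold change 1.09, limma adjusted p = 0.0120), and the log2 fold change was 0.71 without CCI rat 1. At the promoter of Lyl1, a basic helix-loop-helix factor of blood and endothelial cells, the region chr19:25814708-25815203 had 73.4 and 57.7 normalized reads against 30.1, 23 and 20.4, a log2 fold change of 1.39 (SE 0.301, limma adjusted p = 0.00523). The region near RT1-A3, a class I major histocompatibility gene, had 140 and 109 normalized reads against 48.7, 47 and 56.5 (log2 fold change 1.28, limma adjusted p = 0.00374). RT1-A3 belongs to a family of similar copies, and reads may be divided among them. Regions near Bcl3, a cofactor of NF-kappaB, and Zc3h12a, an RNase that degrades inflammatory transcripts, had log2 fold changes of 1.04 (limma adjusted p = 0.0548) and 1.19 (limma adjusted p = 0.0265). All values of the CCI rats in these 5 regions lay above all values of the naive rats, as was usual for called regions.

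The largest of the increases among the 22 was near Atp5l, a subunit of the mitochondrial ATP synthase, with 42.1 and 37.1 normalized reads in the CCI rats against 13.7, 17 and 9.86 in the naive rats (log2 fold change 1.51, limma adjusted p = 0.00933). Near Mir6328 the values were 56.7 and 38.9 against 17.6, 11 and 23.7, a log2 fold change of 1.44 (limma adjusted p = 0.00832). The set also included regions near Arid1a, a subunit of the SWI/SNF remodelling complex (log2 fold change 1.04), Taf11, a subunit of TFIID (1.20), and Msl1, of a histone acetyltransferase complex (1.07). Near Mir138-1 the values were 74.8 and 70.1 against 31.0, 41 and 26.3 (log2 fold change 1.14, limma adjusted p = 0.0264). The others were near Gabarap, an autophagy protein, Cdc42ep4, an effector of Cdc42, Slc39a7, a zinc transporter, Eno3, a glycolytic enolase, and Midn, Ypel3, Nudt14 and Egfl8, with log2 fold changes of 0.89 to 1.18.

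Among the 15 less accessible regions were those near Erbb4, Flrt3, Lrrc4c and Ncam2. At the promoter of Erbb4, a receptor tyrosine kinase for neuregulins, the region chr9:76179516-76179993 had 22 and 30.2 normalized reads in the CCI rats against 59.5, 50 and 67.7 in the naive rats. The log2 fold change was -1.15 (SE 0.292, limma adjusted p = 0.0264). The region near Flrt3, a leucine-rich repeat protein of axon guidance, had 31.4 and 24.3 against 75.2, 59 and 69.7 (log2 fold change -1.26, limma adjusted p = 0.00831). The region near Lrrc4c, a synaptic ligand of netrin-G1, had 70.8 and 64.6 against 157, 149 and 133 (log2 fold change -1.10, limma adjusted p = 0.0124). Near Ncam2, a neural cell adhesion molecule, the values were 8.01 and 10.5 against 30.1, 19 and 27.6 (log2 fold change -1.36, limma adjusted p = 0.0457). In each of these regions both CCI values lay below all naive values, as was usual for called regions.

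The region near Mir9-2, which encodes a miRNA of neural development, lay at chr2:11877789-11878118 in a domain of 17810 bp with 5 regions. It had 41.4 and 34.8 normalized reads in the CCI rats against 87.9, 88 and 78.2 in the naive rats, a log2 fold change of -1.14 (SE 0.275, limma adjusted p = 0.0168). The promoter region of Tmod2, the neuronal tropomodulin that caps actin filaments, had 50.1 and 42.6 against 83.6, 107 and 86.1 (log2 fold change -0.97, limma adjusted p = 0.0473). Near Lgals3, which encodes galectin-3 and is abundant in macrophages, the values were 30.7 and 34.8 against 67.3, 77 and 51.9 (log2 fold change -0.96, limma adjusted p = 0.0668). The largest decrease was at chr6:80218660-80218842, a region of 183 bp without a name, with 3.34 and 17.4 normalized reads against 35.3, 38 and 40.1 (log2 fold change -2.12, limma adjusted p = 3.81e-05). The log2 fold change was -1.07 without CCI rat 1 and -3.16 without CCI rat 2. The same held near Slc2a13, an inositol transporter, at -1.89 with all rats and -1.08 without CCI rat 1. The rest were near Epc1, RGD1307595, Trim27, Ppfibp1, Olr321 and Timm9, at -1.66 to -0.82.

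Other large changes were called in regions that lost the call when 1 rat was left out. Near Palmd, which encodes palmdelphin, the values were 3.34 and 16.02 normalized reads in the CCI rats against 28.8, 29 and 27.6 in the naive rats, which were separate. The log2 fold change was -1.78 (limma adjusted p = 0.00353), and without CCI rat 1 it was -0.79 and not called. Near Clec2g, a C-type lectin, it was -1.65, and near Zc3h15 it was -1.30. Without CCI rat 1 these were -0.81 and -0.87, and neither region was called. Near Mid1, a ubiquitin ligase bound to microtubules, it was -1.39, and the call was lost without CCI rat 2 (-1.20), naive rat 1 (-1.24) or naive rat 2 (-1.23). The largest increase by the rule, 1.86 at chr17:14825994-14826221, rested on 18.7 and 10.99 normalized reads in the CCI rats against 3.27, 1 and 7.89 in the naive rats. It had an adjusted limma p of 0.155 and was not called without CCI rat 1, CCI rat 2 or naive rat 2, with log2 fold changes of 1.5, 2.22 and 1.32. The regions near Mir196a (1.65), Miat (1.64), Vamp3 (1.5) and Padi6 (1.48) were not called without CCI rat 1, with log2 fold changes of 1.38, 1.45, 1.09 and 1.22. Near Prelid1 the log2 fold change was 1.45, and it was 1.41 without CCI rat 1 and 1.49 without CCI rat 2, not called in either case.

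A pair of regions with low p-values likewise rested on 1 rat. At the promoter of Nat8l, which makes N-acetylaspartate in neurons, the values were 107 and 62.7 normalized reads in the CCI rats against 30.4, 34 and 44.0 in the naive rats (log2 fold change 1.18, limma adjusted p = 0.0156), and without CCI rat 1 the log2 fold change was 0.80 and not called. Near Blnk, an adaptor of B cell receptor signalling, they were 65.4 and 59.1 against 36.6, 13 and 34.8 (log2 fold change 1.25, limma adjusted p = 0.0157). Without naive rat 2, which had the lowest value there, the log2 fold change was 0.78 and the region was not called.

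Of the gene lists used, the one on injury transcription factors and regeneration had the most named members, with 5 of its 24 genes and 6 regions. Of these, 5 were called more accessible and none less. Over all 408 named regions 337 were called (82.6%), since names come from lists of changed regions, so this count is close to the share of any named regions. The promoter region of Socs3, an inhibitor of cytokine receptor signalling, had 56.7 and 43 normalized reads in the CCI rats against 21.2, 16 and 26.9 in the naive rats (log2 fold change 1.20, limma adjusted p = 0.0327). A second region near Socs3 in the same domain had 104 and 90.7 against 45.4, 63 and 61.8 (log2 fold change 0.78, limma adjusted p = 0.135). The promoter region of Atf4, a factor of the integrated stress response, had 459 and 391 against 210, 270 and 241 (log2 fold change 0.82, limma adjusted p = 0.0944). Near Jund, a subunit of AP-1, the values were 49.4 and 44.9 against 19.9, 22 and 25 (log2 fold change 1.05, limma adjusted p = 0.0703), and near Fosl2, another subunit, the log2 fold change was 0.70 (limma adjusted p = 0.178). At the promoter of Stat3, which carries cytokine signals to the nucleus, the values were 511 and 378 against 248, 293 and 287, which were separate, but the log2 fold change of 0.67 had a limma p of 0.0101 and was not called. Each of the 5 calls was lost without at least 1 rat. Without CCI rat 1 the log2 fold changes were 1 and 0.68 for the regions of Socs3, 0.98 for Jund and 0.43 for Fosl2, none of them called. Without naive rat 1 the second region of Socs3 (0.63), Atf4 (0.73) and Fosl2 (0.66) were not called, and without naive rat 3 Atf4 (0.83) and Fosl2 (0.61) were not. Stat3 was called without CCI rat 2, at 0.89. With window centring limma called 0 of the 6 regions at p below 0.01 and 2 at p below 0.05, and their 1 Mb windows had median log2 fold changes of 0.39 to 0.65.

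Other lists had at most 2 named regions. The promoter region of Ret, the receptor tyrosine kinase of GDNF family ligands, had 34.7 and 22.0 normalized reads in the CCI rats against 11.1, 10 and 12.5 in the naive rats (log2 fold change 1.24, limma adjusted p = 0.0839), and it was not called without CCI rat 1, at 0.92. Regions at the promoters of Etv1, an ETS factor of proprioceptive and other sensory neurons, and of Cxcr4, a chemokine receptor, were less accessible. For Etv1 the values were 182 and 117 against 239, 282 and 232 (log2 fold change -0.77, limma adjusted p = 0.115), and only the fit without CCI rat 1 kept the call, with -0.46 without CCI rat 2, -0.81 without naive rat 1, -0.69 without naive rat 2 and -0.83 without naive rat 3. For Cxcr4 they were 60.1 and 43.5 against 71.6, 121 and 80.8 (log2 fold change -0.78, limma adjusted p = 0.130), with -0.56 and no call without CCI rat 2 and likewise without naive rat 2. None of 11 neuropeptide genes and none of 8 general regulators had a named region in a broad domain, which says nothing of regions that the lists do not name.

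Markers of several cell types were among the called regions. Of 9 genes that mark DRG neurons 3 had a named region, and these, near Prph, Nefh and Tubb3, were called more accessible. Near Nefh, the heavy neurofilament, the values were 64.1 and 39.8 in the CCI rats against 21.2, 25 and 23 in the naive rats (log2 fold change 1.10, limma adjusted p = 0.0508), and the region was not called without CCI rat 1, at 0.76. Near Tubb3, neuronal beta tubulin, they were 61.4 and 31.1 against 21.2, 29 and 17.1 (log2 fold change 0.97, limma adjusted p = 0.109), and it was not called without CCI rat 1 (0.49), naive rat 1 (0.94) or naive rat 3 (0.79). Of 6 glial markers the factor Sox10 had a region with 58.7 and 44.0 against 21.9, 37 and 15.1 (log2 fold change 1.10, limma adjusted p = 0.0497), which was not called without CCI rat 1 (0.90) or naive rat 3 (0.81). Of 3 fibroblast markers the collagen gene Col1a1 had a promoter region with 117 and 84.7 against 54.6, 63 and 60.5 (log2 fold change 0.74, limma adjusted p = 0.157), which was not called without CCI rat 1 (0.51), naive rat 1 (0.68) or naive rat 3 (0.76). No named region was found for 5 macrophage, 4 endothelial and 4 skeletal muscle markers. With window centring limma called 0 of these 5 marker regions at p below 0.01 and 3 at p below 0.05. As 82.6% of all named regions were called, these counts show nothing particular to the markers. The part of cell composition in the result was not tested.

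Called regions of both directions were not found in 1 domain: 437 domains held a called region, 65 held at least 2, and 0 held both a more and a less accessible one. All regions were higher in CCI rats in 970 of the 1753 domains with 2 or more, all were lower in 247, and 536 had both. These counts were not made for shorter H3K4me1 regions, so they have no background share. For pairs of neighbouring regions in a broad domain, the Pearson correlation of their log2 fold changes was 0.55 over 1833 pairs under 1 kb apart, 0.45 over 794 pairs at 1 to 3 kb and 0.52 over 306 pairs at 3 to 10 kb. For neighbouring regions in different H3K4me1 regions it was 0.28, 0.25 and 0.28 at the same distances. For neighbours in the same H3K4me1 region under 4 kb it lay between, at 0.42 over 6732 pairs under 1 kb apart and 0.31 over 453 pairs at 1 to 3 kb. These are descriptions across pairs that share the same 5 libraries, and the classes differ in signal and so in counting error.

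With the reads of all accessible regions in a domain summed, 275 of 3292 broad domains (8.35%) were called at a limma p below 0.01, 234 more and 41 less accessible. Over all 48170 H3K4me1 regions with an accessible region 5.41% were called, 3.42% more and 1.99% less accessible. At an adjusted p below 0.05 limma called 28 broad domains (0.851%), against 0.828% of all, a share near the background. Without CCI rat 1, 24 broad domains were more and 119 less accessible, and the totals without CCI rat 2, naive rat 1 and naive rat 3 were 761, 55 and 100. Without naive rat 2 the total was 321, 306 of them more and 15 less accessible. Shares over all H3K4me1 regions were worked out only for the fit as reported, here and further on. The domain with the lowest p was assigned to Mir138-1, which encodes a brain-enriched miRNA, and covered chr8:131623887-131630359. Its summed signal was 153 and 130 normalized reads in the CCI rats against 60.8, 70 and 53.2 in the naive rats (log2 fold change 1.19, limma adjusted p = 0.00533), and its 3 regions were all called, at log2 fold changes of 1.11 to 1.40. In the domain of Lrrc4c the sums were 86.8 and 72.3 against 171, 165 and 156 (log2 fold change -1.04, limma adjusted p = 0.0178). Other domains called less accessible included that of Atxn7l3b, with 181 and 104 normalized reads against 269, 257 and 257 (log2 fold change -0.92, limma adjusted p = 0.0399), whose call was lost without CCI rat 2, at -0.53. The domain with the most called regions, chr10:56599394-56611888 at Phf23, Gabarap and Dvl2, had 5 of 5 called more accessible and sums of 1168 and 824 against 502, 676 and 553. Among domains with regions called less accessible, those at Trim27, RGD1307595 and Lrrn3 had 3 called regions each.

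The calls were unevenly placed along the genome. Chromosome 10 held 576 of the regions, with a median log2 fold change of 0.53, and 107 called regions, of which 106 were more accessible. The other tested regions of chromosome 10 had a median of 0.47, so the level was shared by the chromosome. On chromosome 12 all 27 called regions were more accessible, whereas 18 of the 21 on chromosome 2 were less accessible. The median log2 fold change on chromosome 12 was 0.44 both in the regions and in the other tested regions. On chromosome 2 it was 0.00 in the regions and -0.06 in the others, so these levels too were largely shared by the chromosome. Chromosomes 10 and 12 together held 12.9% of the regions and 25.9% of the called ones, and the same was not worked out for the other tested regions. Off these chromosomes 384 regions (7.37%) were called, 290 more and 94 less accessible, against 4.45% of the other tested regions. With all chromosomes the shares were 8.66% and 4.86%, so calls were more frequent on chromosomes 10 and 12 in both groups.

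Of the 518 called regions 337 had a gene name. The study's list of promoters with changed accessibility in these same libraries held 139 of the regions in broad domains. Of these 99 were called, 86 more and 13 less accessible, and a high share of calls is built into such a list. RefSeq promoters on GRCr8 were matched by symbol for 66 of the 86 and 12 of the 13 genes. A GC box was present in 56 of the 66 promoters of the more accessible group (84.8%) and in 5 of 12 of the less accessible group (41.7%), against 34.9% of 27457 RefSeq promoters. The median GC content was 70.0%, 54.5% and 52.3%, respectively. The ETS motif CCGGAAG was found on either strand in 12 of 66, 0 of 12 and 9.22% of all promoters, and the AP-1 motif TGANTCA in 1 of 66, 0 of 12 and 7.33%. In the same order the E-box CANNTG was found in 54.5%, 83.3% and 71.6%, and CCAAT in 24.2%, 33.3% and 37.7%. The RUNX motif TGTGGT was found in 4.55%, 8.33% and 16.9%, and the SOX motif ACAATG in 3.03%, 8.33% and 13.0%. All RefSeq promoters were the background, open or not, and uncalled promoters in broad domains were not compared. A short GC-rich motif is found more often in GC-rich sequence, so these shares are not independent of the GC content, and the part of GC content in the accessibility results was not tested. None of the 7 regions that the study cloned for reporter assays lay in a broad domain as defined here.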

How the data were processed

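Accessibility was measured by ATAC-seq in 2 CCI and 3 naive rats, and H3K4me1 by ChIP-seq in 4 pooled samples. After trimming, the authors aligned to rn6 (Bowtie2), discarded alignments of mapping quality below 10 and duplicates, shifted Tn5 insertions, called regions with MACS2 and counted reads with DiffBind. Program versions other than CASAVA 1.8.2, from the submitters' processing notes, are not given in the sources used here. The signal deposited by the authors is reads per region divided by a library size factor, here 1.00 to 3.06 relative to naive rat 2, with a floor of 1 read. The H3K4me1 list, deposited as positions, merges regions called with MACS2 from both conditions. Per the file header, the columns of this list are positions only.

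Multiplying the deposited signal by the size factors gave whole reads (within 0.0051 of the deposited value) for at least 99.99% of the values in each library. The median tested region held 20 reads in naive rat 2 and 57 in naive rat 1, so single regions carry counting error. Overlaps of at least 1 bp were found with bedtools 2.31.1. Regions were assigned to the longest H3K4me1 region they overlap. limma 3.58.1 (R 4.3.3, mean-variance trend, two-sided) was fitted to log2(normalized reads + 1) over all 58445 regions that overlap H3K4me1. Calls were made at p below 0.01 and at a Benjamini-Hochberg adjusted p below 0.05. The regions of the study's lists, as read here, had p below 0.01, although its methods name p below 0.05. Fold changes are on this scale, which understates low regions. Sums per H3K4me1 region were fitted likewise. Rats were compared with exact permutation tests. The permutation p-values rest on the values of these rats. In the limma fit the SE came mostly from regions of similar signal and less from a region's own spread between rats. It was 0.272 at chr1:11909507-11910193, where naive values ranged from 292 to 858. At chr1:55710618-55711437, where they ranged from 908 to 948, it was 0.288. The limma p-values therefore do not measure the spread of a single region between rats.

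The regions and gene lists were chosen with earlier results of these data known. Regions were named by the 10 largest changes and 10 lowest p-values in each direction with at least 10 reads in a library and both CCI values beyond all naive values, the 8 strongest signals, the gene lists, the domains with the most regions, the longest and those with the lowest p. The 37 regions kept without any single rat, the cell type markers, the domains with several calls and Lrrn3 were added after the values were seen, as were the 5 signal classes and the split by chromosome. Gene names come from the study's lists of changed regions, 408 regions in all, and 363 of 366 symbols were found in RefSeq (GRCr8). Alternatives were other scalings (median-of-ratios, quantile, cyclic loess, 1 Mb windows), pseudocounts 0.1 and 10, no trend, a filter on the lowest 25%, edgeR 4.0.16 and DESeq2 1.42.0 on recovered reads, each rat left out, other limits for broad domains and for overlap, and a fit of all 186719 regions. A genome of the files' build was not used, so base content and motifs of the regions were not analysed here. Figures were drawn with matplotlib 3.10.9.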

Additional observations from a re-analysis of the deposited data

How the results depend on the processing

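The level of the regions over those in shorter H3K4me1 regions kept its direction in every setting run. Per region instead of per kb, the ratio was 1.84 to H3K4me1 regions of 1 to 4 kb and 3.82 to those under 1 kb, and with domains of at least 6000 bp it was 1.91 and 2.82.

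The counts of calls moved with most settings and the cause was not tested. In the order of all calls, more accessible, less accessible and adjusted calls, 1 Mb window centring gave 210, 35, 175 and 38, median-of-ratios 823, 483, 340 and 480, quantile 1182, 805, 377 and 876, and cyclic loess 1171, 799, 372 and 867. limma without a trend gave 101, 77, 24 and 0, DESeq2 314, 254, 60 and 3, and edgeR with TMM factors 885, 505, 380 and 589. The share of the regions called was under that of the other tested regions without a trend (1.69% against 3.17%) and with window centring (3.51% against 4.19%), and above it with DESeq2 (5.25% against 2.40%) and edgeR with TMM factors (14.8% against 9.36%). It was also above it with median-of-ratios (13.8% against 8.50%), quantile (19.8% against 10.2%) and cyclic loess (19.6% against 10.1%). Leaving out a rat gave 164 to 977, 51 to 932, 37 to 178 and 1 to 324. The lowest total was without naive rat 1 and the highest without CCI rat 2. At p below 0.05 there were 1317, 1096 and 221. Where the limit of the rule changed the number of regions, counts followed it. With domains of at least 3000 bp there were 795 calls (7.64% of 10400), 166 of them less accessible, and 105 adjusted. With at least 6000 bp there were 216 (9.23% of 2339), 184, 32 and 32. The log2 difference between CCI and naive rats in the level of the class was 0.07, and it was -0.03 with window centring and -0.01 without CCI rat 1, with a range of -0.01 to 0.15 over the fits that left out a rat.

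Called broad domains numbered 656 with median-of-ratios, 1014 with cyclic loess, 501 and 94 with limits of 3000 and 6000 bp, and 55 to 761 without a rat, against 275. Of the 42 called regions that the rule named, 24 kept the call with window centring, 21 without CCI rat 1 and 35 with DESeq2, and 0 turned direction in any of these fits.

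Rats with the same replicate number were different animals, and their deviations from the group means had correlations of -0.085 and -0.075, so the numbers do not pair them. With a replicate block all the same, 150 regions were called (2.51%, against 2.41% of the other tested regions), 114 more and 36 less accessible, 2 of them at an adjusted p below 0.05, and 36 broad domains were called.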
